A study of Homo sapiens with 21 samples.

Results

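Clone EM1 was compared with the uncloned line it came from, using 6 of the 21 RNA-seq libraries of the series. The line is SUM149PT, an established cell line from an inflammatory breast cancer, labelled as negative for the estrogen and progesterone receptors. The members are the 3 libraries whose labels name clone EM1 and the 3 whose labels name the parental line (Parental). Nobody treated the cells, both groups were grown the same way, and poly(A) RNA was extracted with the same kit and read from one end. EM1 is 1 clone, so what is particular to a single founder cell and what is shared by cells of its state cannot be told apart in this comparison. Parental is a bulk culture, in which fewer cells of a kind and less RNA per cell cannot be told apart. The other 5 clones of the series, named E, EM2, EM3, M1 and M2 by the submitters, also had 3 libraries each. They serve to place the levels of EM1. Their libraries also entered the fit, so they help set the spread behind every p-value of EM1 against Parental. Whether the 3 libraries of a line stem from different cultures is not stated. Every p-value thus rests on how far libraries of 1 line spread, estimated over all 21 libraries, and that spread may be technical.

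Epithelial cells hold together through E-cadherin junctions and keratin filaments. In the epithelial to mesenchymal transition they lose these and take up the intermediate filament vimentin, under repressors such as ZEB1, SNAI2 and TWIST2. The title of the series speaks of an intermediate state of this transition. A second programme matters for what follows. Cells make cholesterol from acetyl-CoA through the mevalonate pathway, and the enzymes of that route are transcribed together by SREBP2, the product of SREBF2, a membrane-bound factor that is released when sterols in the endoplasmic reticulum are low.

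The deposited tables gave expected read counts and TPM, a level corrected for transcript length and library size. Total counts were 27633125 to 41677476 in the EM1 libraries and 24602417 to 36237466 in the Parental libraries. No pair of libraries was a duplicate, with chi-square values per degree of freedom of 59.7 to 283 between replicates. EM1 replicate 3 had the shortest mean effective transcript length of the 6, at 1864 bases against 2018 and 2028 in the other EM1 libraries and 1919 to 1961 in Parental. In EM2, EM3, M1 and M2 replicate 3 was also the shortest, at 1874 to 1905 bases against 1962 to 2052 in their replicates 1 and 2. All 3 libraries of E were as short, at 1862 to 1871 bases, while in Parental replicate 3 was the longest. No label says how the libraries of shorter length differ from the others. Mitochondrial transcripts took 2.99 to 6.24% of counts in EM1 and 3.01 to 7.23% in Parental. Of 20 markers of blood, immune, endothelial and muscle cells, 9 to 11 were at 0 TPM in each library, among them CD3D, CD3E and MS4A1, and their summed level was 71.8 to 96.9 TPM in EM1 and 59.6 to 88.3 TPM in Parental, nearly all of it CD68.

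EM1 and Parental were close to each other on the scale of this series. Of 18632 genes tested with edgeR, 374 (2.01%) were called at a BH-adjusted p under 0.05, of which 175 (0.939%) were higher in EM1 and 199 (1.07%) lower. By comparison, EM1 differed from clone EM3 in 69 genes (0.37%), from EM2 in 1516 (8.14%), from E in 3341 (17.9%), from M1 in 4755 (25.5%) and from M2 in 8528 (45.8%). These comparisons share the EM1 libraries and differ in spread, so the counts are given side by side. Of the 374 genes, 344 were protein-coding and 342 had every library of one line above every library of the other in TPM. Over all genes tested, 8.83% were separated in this way with EM1 higher and 4.36% with EM1 lower. The change was at least 2-fold, a log2 difference of 1, in 157 of the genes called higher and 168 of those called lower. The number called depended on single libraries. It was 207 without EM1 replicate 1, 230 without EM1 replicate 2, 211 without EM1 replicate 3 and 197 without Parental replicate 2. Over all genes DESeq2 called 841 (4.51%), limma-voom 393 (2.11%) and limma-trend on TPM 287 (2.07%). With EM1 replicate 3, the library of shorter effective length, set alone against Parental it was 185, in a fit that assumes the lone library to vary like the other groups. With the 6 libraries fitted by themselves it was 59.

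**Figure D1:**
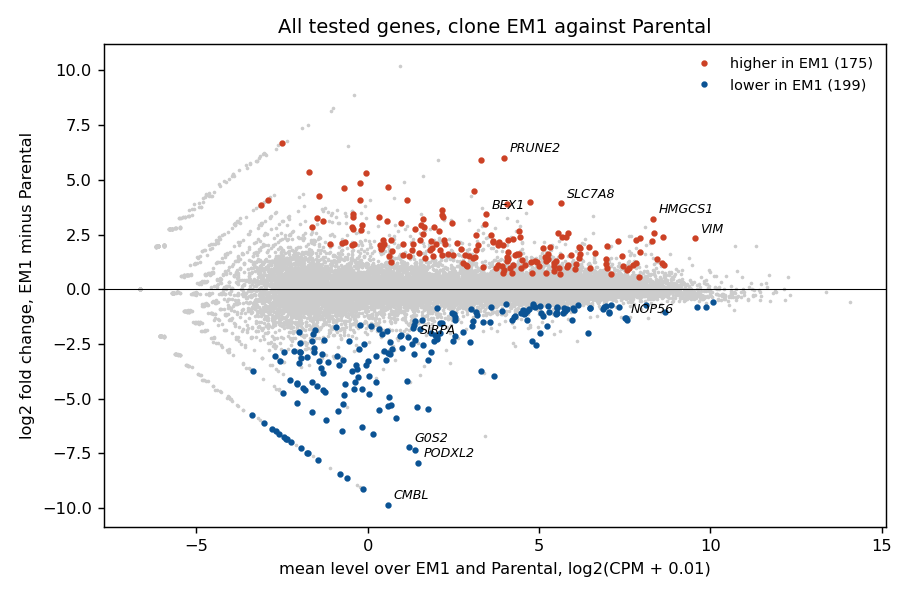
Each point is a tested gene, with its mean level in EM1 and Parental on the x axis (log2(CPM + 0.01)) and the edgeR log2 difference, EM1 minus Parental, on the y axis. The 175 genes called higher in EM1 are red and the 199 called lower are blue, and the lowest, CMBL, had no count in EM1.

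The genes of cholesterol synthesis were the clearest group that rose in EM1. Of 24 genes of synthesis and uptake, 12 were called higher and 0 lower, against the 0.939% called higher over all genes. The median log2 difference of the 24 was 1.90, against 0.02 over all genes tested. Every library of EM1 lay above every library of Parental for 20 of them, and 23 had a positive difference.

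HMGCS1, the synthase that commits acetyl-CoA to the pathway (chromosome 5, 43289395 to 43313512, hg38), stood at 240, 112 and 368 TPM in EM1 replicates 1 to 3. In Parental it stood at 21.9, 11.3 and 35.8 TPM. The lowest EM1 library was thus well above the highest Parental library. The log2 difference was 3.23 ± 0.53 (SE), or 9.38-fold (edgeR, BH-adjusted p = 0.0026).

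Further along the mevalonate arm, MVD, which makes isopentenyl diphosphate, was at 98.8, 59.4 and 258 TPM in EM1 and 18.7, 11.3 and 35.1 TPM in Parental. Its log2 difference was 2.56 ± 0.49 (edgeR, BH-adjusted p = 0.00877). IDI1, the isomerase of that product, rose by a log2 difference of 2.19 ± 0.46 (edgeR, BH-adjusted p = 0.0167), from 56.3 ± 47.4 TPM in Parental to 266 ± 106 TPM in EM1 (SD, 3 libraries each). PMVK, the kinase that acts just before MVD, was the exception of the list. It was at 9.32 to 11.4 TPM in EM1 and 9.43 to 11.1 TPM in Parental, the 2 ranges overlapped, and its log2 difference was -0.12 ± 0.24.

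The squalene and lanosterol steps rose as well. SQLE, the squalene epoxidase, was at 180, 94.1 and 147 TPM in EM1 and 28.7, 19.4 and 45.7 TPM in Parental, a log2 difference of 2.23 ± 0.28 (edgeR, BH-adjusted p = 0.000335). FDFT1, the squalene synthase, was at 382, 225 and 1083 TPM in EM1 and 93.7, 56.6 and 165 TPM in Parental, with EM1 replicate 3 far above the other 2 (log2 difference 2.41 ± 0.53, edgeR, BH-adjusted p = 0.0214). LSS, which closes the sterol rings, rose by a log2 difference of 1.94 ± 0.41 (edgeR, BH-adjusted p = 0.0161). None of these genes had an EM1 library within the Parental range.

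Enzymes that turn lanosterol into cholesterol completed the picture. CYP51A1, the lanosterol demethylase, was at 139, 112 and 181 TPM in EM1 and 43.2, 29.4 and 50.4 TPM in Parental (log2 difference 1.70 ± 0.21, edgeR, BH-adjusted p = 0.000335). SC5D, the desaturase, was at 55.9, 50.1 and 35.6 TPM in EM1 and 5.07, 3.65 and 13.3 TPM in Parental (2.41 ± 0.39, edgeR, BH-adjusted p = 0.00255). MSMO1, the methyl sterol oxidase, reached 460 ± 225 TPM in EM1 from 81.7 ± 72.2 TPM, and HSD17B7, a sterol ketoreductase, 37.1 ± 27.5 TPM from 7.08 ± 1.87 TPM. The sterol carrier STARD4 was the one called gene of the list that makes no sterol, at 39.0 ± 17 TPM against 8.42 ± 6.46 TPM.

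**Figure D2:**
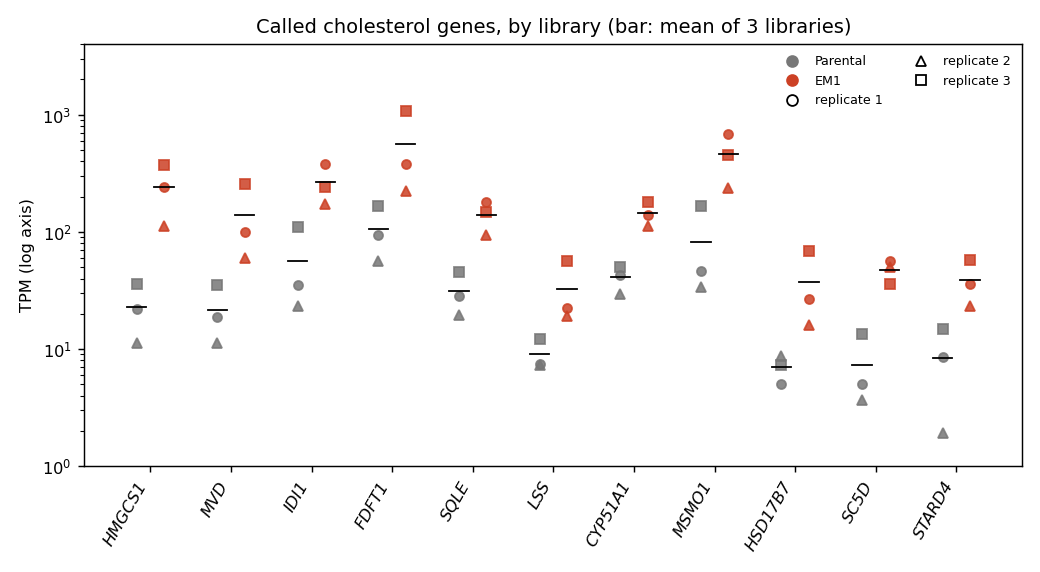
Levels of 11 called cholesterol genes in each library (TPM, log axis), Parental in grey and EM1 in red, with the symbol shape giving the replicate and a bar the mean of 3 libraries. In each of the 11 genes the lowest EM1 point lies above the highest Parental point.

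Regulators of the pathway, INSIG1 and SREBF2, had higher mean levels in EM1 but missed the threshold. INSIG1, which holds SREBP in the endoplasmic reticulum and is itself a target, was at 145, 74.9 and 344 TPM in EM1 and 16.3, 12.8 and 62.0 TPM in Parental, with no overlap (log2 difference 2.46 ± 0.63, edgeR, BH-adjusted p = 0.0526). SREBF2 was at 78.4 ± 23.8 TPM against 40.6 ± 10.6 TPM (1.12 ± 0.38, edgeR, BH-adjusted p = 0.171).

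How firmly the sterol count holds depended on a few libraries. It was 12 of 24 with all libraries, 4 without EM1 replicate 3, 4 without Parental replicate 2, 6 without Parental replicate 1 and 4 when the 6 libraries were fitted alone. HMGCS1, SQLE, CYP51A1 and SC5D kept their calls in all 17 alternative settings. The other called genes lost their calls when single libraries were left out. Without EM1 replicate 3 the edgeR BH-adjusted p was 0.059 for MVD, 0.176 for FDFT1, 0.126 for LSS and 0.0524 for HSD17B7, and without Parental replicate 2 it was 0.0635, 0.138, 0.109 and 0.0554. FDFT1 and LSS were also lost without Parental replicate 1 (0.0623 and 0.0524) and FDFT1 without Parental replicate 3 (0.0506). IDI1, MSMO1 and STARD4 were each lost without EM1 replicate 1, EM1 replicate 3, Parental replicate 1 or Parental replicate 2 (0.0524 to 0.12). Among the values themselves, without EM1 replicate 3 the log2 difference was 1.6 for MVD, 1.43 for FDFT1, 1.17 for LSS and 1.61 for HSD17B7, and without Parental replicate 3 it was 2.78 for IDI1 and 3.29 for MSMO1. With EM1 replicate 3 alone against Parental, 11 of the 24 were called, under the same assumption on the spread of a lone library.

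Across the 7 lines, the high sterol level was shared with EM3. The mean log2(TPM + 1) of the 24 genes was 6.02 to 7.23 over the EM1 libraries and 6.03 to 6.77 over those of EM3. It was 4.35 to 5.49 in Parental, 4.54 to 4.74 in E, 4.61 to 5.12 in EM2, 4.26 to 4.78 in M1 and 4.04 to 4.93 in M2. HMGCS1, for example, was at 240 ± 128 TPM in EM1 and 194 ± 74.0 TPM in EM3, while the means of the other 4 clones were 12.1 to 16.4 TPM. Of the 24 genes, 0 were called between EM1 and EM3 in edgeR, DESeq2, limma-voom or limma-trend on TPM, and 0 had an unadjusted p under 0.05. Over all genes edgeR called 0.37% between these clones, and 723 of 18632 had an unadjusted p under 0.05. At that share, 0 calls in a list of this size say little about its members. Against E, 15 of the 24 were called higher in EM1, beside 1834 of 18632 over all genes. Against EM2 it was 17 beside 863, against M1 20 beside 2555 and against M2 22 beside 4685.

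The regions upstream of these genes are shown because members that move together can be read against a shared motif. The box CCAAT is bound by NF-Y, a factor known to work with SREBP at sterol genes. Windows of 250 bases before each start site in RefSeq (GRCh38.p14) matched 18 of the 24 genes. CCAAT, on either strand, was present for 16 of these 18 (88.9%) and for 37.0% of the 27305 genes in the table. It was also present for 8 of the 9 matched genes that were called. The 27305 genes were not limited to those tested here, and the share among tested genes was not computed. The sterol element as TCACNCCAC, on either strand, was found in 1 of the 18, SREBF2, and in 1.09% of all genes. The 2 motifs can overlap only at their ends, and a match is a description of the letters only. In the 5 sequences that follow, capitals mark CCAAT or its reverse complement ATTGG. They were picked after the search from the called genes and hold only bases upstream of both the RefSeq and the GENCODE start.
HMGCS1 (chr5:43313513-43313662, minus strand): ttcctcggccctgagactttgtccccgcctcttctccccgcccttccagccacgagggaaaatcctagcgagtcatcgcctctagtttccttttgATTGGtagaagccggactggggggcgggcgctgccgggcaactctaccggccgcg
MVD (chr16:88663162-88663341, minus strand): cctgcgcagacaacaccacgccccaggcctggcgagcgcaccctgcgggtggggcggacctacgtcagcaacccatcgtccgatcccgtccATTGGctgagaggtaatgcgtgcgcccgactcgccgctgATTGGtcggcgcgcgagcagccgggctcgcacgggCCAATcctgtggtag
LSS (chr21:46228825-46229024, minus strand): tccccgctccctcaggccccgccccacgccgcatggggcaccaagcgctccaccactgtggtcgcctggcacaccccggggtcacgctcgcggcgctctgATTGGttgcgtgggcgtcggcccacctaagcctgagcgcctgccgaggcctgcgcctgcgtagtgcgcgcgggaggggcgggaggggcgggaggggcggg
MSMO1 (chr4:165327419-165327622, plus strand): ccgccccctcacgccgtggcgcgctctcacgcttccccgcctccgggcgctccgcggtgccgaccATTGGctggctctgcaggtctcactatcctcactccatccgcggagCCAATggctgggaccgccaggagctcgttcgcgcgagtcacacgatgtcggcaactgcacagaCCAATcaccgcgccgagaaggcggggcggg
HSD17B7 (chr1:162790452-162790701, plus strand): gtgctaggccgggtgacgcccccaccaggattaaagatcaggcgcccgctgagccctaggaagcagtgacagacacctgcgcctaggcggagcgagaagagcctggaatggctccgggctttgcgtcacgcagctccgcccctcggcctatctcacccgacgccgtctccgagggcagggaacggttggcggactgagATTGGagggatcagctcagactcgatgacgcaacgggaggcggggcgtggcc
MVD and MSMO1 hold 3 matches each, and HMGCS1, LSS and HSD17B7 hold 1 each.

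Fatty acid genes, many of which SREBP factors also control, went the same way with fewer calls. All 13 tested had a positive difference, with a median log2 difference of 1.12, and 4 were called higher and 0 lower, beside the 0.939% called higher over all genes. DESeq2 called 10 of them higher. ELOVL5, an elongase of polyunsaturated fatty acids, was at 105, 88.0 and 141 TPM in EM1 and 38.4, 54.8 and 59.1 TPM in Parental, without overlap. Its log2 difference was 1.09 ± 0.19 (edgeR, BH-adjusted p = 0.00367). ME1, a source of NADPH, FADS1, a desaturase, and ACSL3, which activates fatty acids, rose by log2 differences of 0.93, 1.12 and 1.41. The synthase FASN (481 ± 399 TPM against 138 ± 41.6 TPM) and the desaturase SCD (721 ± 467 TPM against 182 ± 85 TPM) spread widely, with EM1 replicate 3 highest at 940 and 1259 TPM, and were not called (edgeR, BH-adjusted p = 0.0889 and 0.0639). ME1, FADS1 and ACSL3 each lost their call without EM1 replicate 3 or any one Parental library (0.0507 to 0.258), and FADS1 also without EM1 replicate 1 (0.0687). The count of 4 fell to 1 without EM1 replicate 3 and to 1 without any one of the Parental libraries, and was 11 with EM1 replicate 3 alone.

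Beyond synthesis, ABCG1 was called lower and NPC1 higher. ABCG1, an exporter of cholesterol to lipoproteins, was at 0.03, 0.07 and 0.11 TPM in EM1 and 0.47, 3.17 and 1.29 TPM in Parental, so every EM1 library was lower. Its log2 difference was -5.37 ± 1.07 (edgeR, BH-adjusted p = 0.0107). The call was lost without EM1 replicate 1 (0.0616), EM1 replicate 3 (0.0524) or Parental replicate 2 (0.051, log2 difference -4.40). The adjusted p was 0.0879 with limma-voom and 0.359 with limma-trend on TPM. NPC1, which moves cholesterol out of lysosomes and is named here after its value was seen, rose to 102 ± 71.3 TPM from 19.98 ± 7.42 TPM (log2 difference 2.36, edgeR, BH-adjusted p = 0.0164). That call was lost without EM1 replicate 3 (0.122, log2 difference 1.49) or Parental replicate 2 (0.11).

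Of the genes of epithelial and mesenchymal identity, 0 of 37 and 4 of 32 were called between EM1 and Parental, beside 2.01% over all genes. VIM, the gene of vimentin (chromosome 10, 17228259 to 17237593) was at 817, 672 and 629 TPM in EM1 and 162, 65.1 and 155 TPM in Parental. All EM1 libraries were above all Parental libraries. The log2 difference was 2.34 ± 0.30, or 5.08-fold (edgeR, BH-adjusted p = 0.000356), and it was called in all 17 alternative settings. Among the lines, EM1 at 706 ± 98.5 TPM stood above Parental (127 ± 54.0) and E (13.8) and below EM2 (963), EM3 (1255), M2 (2102) and M1 (2664). VIM was not called between EM1 and EM3 (edgeR, BH-adjusted p = 0.73), which does not show that the 2 levels are equal.

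Of 32 tested mesenchymal genes, 2 were called higher and 2 lower, beside 0.939% higher and 1.07% lower over all genes, and the median log2 difference was 0.02. At an unadjusted p under 0.05 there were 12 of the 32, beside 2314 of the 18632 genes tested. DESeq2 called 4 higher and 3 lower, and limma-voom and limma-trend on TPM each called 2 higher and 0 lower. ZEB1, a repressor of epithelial genes, was the other gene that rose, at a low level. It was at 0.30, 0.73 and 0.81 TPM in EM1 and 0.26, 0.11 and 0.09 TPM in Parental (log2 difference 1.94 ± 0.46, edgeR, BH-adjusted p = 0.0323). EM1 stayed below EM3 at 3.38 TPM (edgeR, BH-adjusted p = 0.0294) and far below M1 and M2, at 33.3 and 26.7 TPM. The ZEB1 call was lost without EM1 replicate 2 (0.0941), EM1 replicate 3 (0.111), Parental replicate 2 (0.174) or Parental replicate 3 (0.141), and the difference was 2.75 without Parental replicate 1. SNAI2 was at 54.7 ± 26 TPM against 10.9 ± 8.46 TPM, did not overlap and missed the threshold (edgeR, BH-adjusted p = 0.0705).

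TWIST2 and the fibrillar collagen COL5A1 were lower in EM1. TWIST2 was at 2.64, 2.50 and 2.60 TPM in EM1 and 4.01, 3.41 and 5.41 TPM in Parental, a log2 difference of -0.83 ± 0.18 (edgeR, BH-adjusted p = 0.0208). Its call was lost without EM1 replicate 1 (0.0766), EM1 replicate 2 (0.0765), Parental replicate 1 (0.07) or Parental replicate 3 (0.0592). COL5A1 had 12 counts in the 3 EM1 libraries and 211 in the 3 Parental libraries, with a log2 difference of -4.25 ± 0.74 (edgeR, BH-adjusted p = 0.00429). The TPM values of COL5A1, 0.11, 0.33 and 0.03 against 0.33, 0.18 and 0.68, overlapped, so counts and length-corrected levels did not separate the lines alike. Its call was lost with limma-voom (adjusted p = 0.104) and limma-trend on TPM (0.891). It was also lost with the 6 libraries fitted by themselves (edgeR, BH-adjusted p = 0.0532). Fibronectin (FN1) and N-cadherin (CDH2) were not called, at 425 ± 162 TPM against 540 ± 239 TPM and 16.7 ± 8.30 TPM against 19.5 ± 8.10 TPM.

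On the epithelial side, 0 of 37 identity genes were called in edgeR. Over all genes 2.01% were called, so 0 calls in lists of this size say little about their members. Of the 37, 6 had an unadjusted p under 0.05, beside 2314 of the 18632 genes tested. DESeq2 called 1 of them, limma-voom 0 and limma-trend on TPM 0. E-cadherin (CDH1) was at 35.1, 27.0 and 78.4 TPM in EM1 and 34.2, 20.2 and 63.0 TPM in Parental, with overlapping ranges and a log2 difference of 0.21 ± 0.54. EPCAM, an epithelial adhesion molecule, was at 352 ± 149 TPM against 361 ± 93.3 TPM. Of 24 basal and squamous genes, 0 were called in edgeR, 3 had an unadjusted p under 0.05, DESeq2 called 2 lower, and limma-voom and limma-trend called 0. The basal keratin KRT5 was at 86.7, 159 and 231 TPM in EM1 and 333, 535 and 304 TPM in Parental. Its libraries did not overlap, yet the log2 difference of -1.33 ± 0.41 missed the threshold (edgeR, BH-adjusted p = 0.117).

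**Figure D3:**
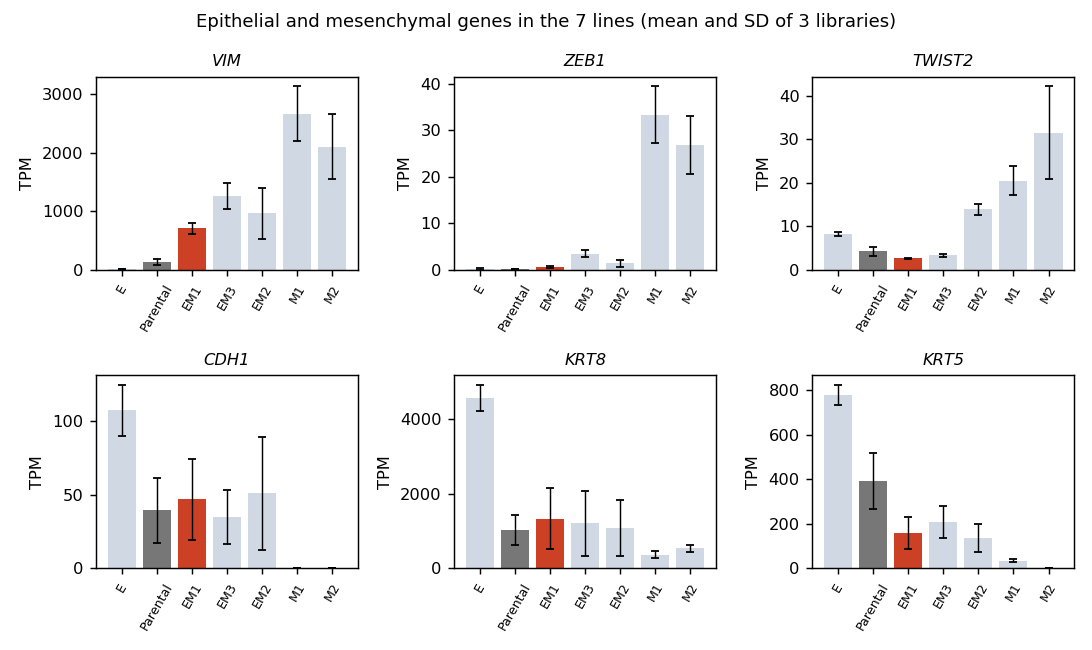
Bars give the mean TPM and error bars the SD of 3 libraries for 6 epithelial and mesenchymal genes in the 7 lines, with EM1 red and Parental grey. VIM in EM1 (706) is above Parental (127), while CDH1 and KRT8 have overlapping errors in the 2 lines.

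The largest single increases were in genes of varied function that were low in Parental. Among called protein-coding genes with a mean CPM of at least 1 and no overlap of libraries, PRUNE2 had the largest rise, to 2.18, 3.49 and 19.8 TPM from 0.09, 0.26 and 0.29 TPM, a log2 difference of 6.01 ± 1.12 (edgeR, BH-adjusted p = 0.00687). EM1 replicate 3 was far above the other 2, and the log2 difference was 4.23 without it and 7.27 with it alone. The call was lost with the 6 libraries fitted by themselves. OLFML3, a secreted olfactomedin protein, was at 6.53, 6.99 and 14.8 TPM against 0.59, 0.15 and 0.58 TPM (log2 difference 4.51 ± 0.65, edgeR, BH-adjusted p = 0.000846). SLC7A8, which carries neutral amino acids, was at 29.8, 59.2 and 104 TPM against 4, 1.14 and 5.73 TPM (3.92 ± 0.57, edgeR, BH-adjusted p = 0.000987). In each of the 3 the lowest EM1 library was several times the highest Parental library. Without EM1 replicate 3 the log2 difference was 3.87 for OLFML3 and 3.18 for SLC7A8, and without Parental replicate 1 it was 5.18 for OLFML3.

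Transcription factors were among these genes. SOX7, an SRY-box factor, was at 1.22, 0.89 and 1.68 TPM in EM1 and 0.06, 0.05 and 0.09 TPM in Parental (log2 difference 4.09 ± 0.55, edgeR, BH-adjusted p = 0.000513). HEY1, a repressor induced by Notch, was at 4.39, 3.51 and 4.74 TPM against 0.34, 0.20 and 0.84 TPM (3.29 ± 0.47, edgeR, BH-adjusted p = 0.000846). Calls for OLFML3, SLC7A8, SOX7 and HEY1 were kept in all 17 alternative settings. LCP1, an actin-bundling plastin, rose to 16.1 ± 10.4 TPM from 1.12 ± 0.19 TPM, and GPNMB, a glycoprotein linked to lysosomes, to 4.33 ± 1.84 TPM from 0.677 ± 0.55 TPM. Both were also higher in EM3 than in Parental by level, at 6.42 and 8.87 TPM. LAMA1, a laminin chain, rose to 3.12 ± 1.65 TPM from 0.41 ± 0.14 TPM, a call lost without EM1 replicate 2 (edgeR, BH-adjusted p = 0.0875), Parental replicate 2 (0.12) or Parental replicate 3 (0.0869).

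The largest decreases were near-complete losses of transcript. CMBL, a hydrolase (chromosome 5, 10275875 to 10308026), had 0 counts in all EM1 libraries and 268 in Parental. Its Parental levels were 0.74, 1.89 and 1.76 TPM. Taking 3 counts over the EM1 libraries as the floor, it was at least 107-fold lower (edgeR, BH-adjusted p = 1.7e-07). CMBL was at 0.0133 TPM in EM3 but 1.35 TPM in E, 9.20 in EM2, 6.78 in M1 and 21.5 in M2. In all, 17 called genes had no count in EM1 and 1, SP140, none in Parental. SP140, with 35 counts in EM1, lost its call without EM1 replicate 1 or any one Parental library (0.0566 to 0.0687).

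PODXL2, a sialomucin of the CD34 family, had 2 counts in EM1 and 492 in Parental, 293-fold fewer for the depth (95% exact interval 80.8 to 2429, counting error only). Its levels were 0 to 0.04 TPM in EM1 and 1.94, 2.73 and 2.67 TPM in Parental (edgeR, BH-adjusted p = 2.78e-05). SLC6A11, a GABA transporter, had 3 counts against 461 (183-fold, interval 62.3 to 892, edgeR, BH-adjusted p = 1.7e-07). Unlike CMBL, PODXL2 and B3GAT1, it was also called between EM1 and EM3, which stood at 0.367 TPM against 0.01 TPM in EM1 (edgeR, BH-adjusted p = 3.18e-05). B3GAT1, which makes the HNK-1 glycan epitope, was at 0 to 0.03 TPM in EM1 and 0.89, 0.76 and 0.93 TPM in Parental (log2 difference -5.89 ± 0.53, edgeR, BH-adjusted p = 1.01e-05, and -7.55 without EM1 replicate 3). These 4 genes were called lower in all 17 alternative settings.

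Parental libraries disagreed on some other losses. G0S2, an inhibitor of the lipase ATGL, had 3 counts in EM1 and 448 in Parental, of which levels were 14.8, 0.65 and 2.45 TPM (edgeR, BH-adjusted p = 0.0053). The chemokine receptor CXCR4 was at 0.03 to 0.07 TPM in EM1 and at 0.09, 3.92 and 0.96 TPM in Parental. Its log2 difference was -5.34 ± 1.15 (edgeR, BH-adjusted p = 0.0182). Parental replicate 2 carried most of that level, and without it the call was lost (0.138, log2 difference -3.56), as it was without EM1 replicate 1 (0.078), 2 (0.061) or 3 (0.0859). INHBB, an activin subunit, showed the same, at 0.02 TPM in each EM1 library and 0.05, 1.42 and 0.19 TPM in Parental (0.169 without Parental replicate 2, and 0.0716, 0.063 and 0.0693 without EM1 replicates 1, 2 and 3).

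S100A9, COL9A3 and SULT1E1 were also called lower. The calgranulin S100A9 was at 0.40, 0.13 and 0.60 TPM in EM1 and 5.87, 3.85 and 8.74 TPM in Parental (log2 difference -3.98 ± 0.77, edgeR, BH-adjusted p = 0.00953), and its partner S100A8 had 0 counts against 64, at least 25.4-fold lower. The S100A9 call was lost without EM1 replicate 1 (0.0528) or 2 (0.0516), and its log2 difference was -4.63 without EM1 replicate 3. COL9A3, a cartilage collagen chain, was at 0.71, 0.85 and 1.71 TPM against 7.25, 22.1 and 12.5 TPM (-3.94 ± 0.52, edgeR, BH-adjusted p = 0.000481). The COL9A3 difference was -4.61 without EM1 replicate 3 and -3.35 without Parental replicate 2. SULT1E1, the estrogen sulfotransferase, was at 0.85 ± 0.12 TPM against 11.6 ± 5.49 TPM (-3.72 ± 0.72, edgeR, BH-adjusted p = 0.00941). UGT1A7 was also called lower, but it shares exons with the other UGT1A genes, so its value is uncertain.

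Part of the lower genes lay next to each other. On chromosome 20, 29 of 468 tested genes (6.2%) were called lower and 0 higher, against 1.07% lower over all genes. The longest run of neighbours went from SIRPA to CDC25B (chr20:1894167-3806121, hg38), with 17 of its 25 tested genes called lower and 23 with a negative difference. In the window between 2 and 4 Mb, 27 of 29 genes had a negative difference, 16 were called lower and 21 had all EM1 libraries below all Parental libraries, beside 4.36% over all genes. The median log2 difference there was -1.10, or 2.14-fold lower, the lowest of 271 windows of 2 Mb with at least 20 tested genes. Outside chromosomes 20 and 17 the lowest window was chr12:6000001-8000000, ranked 6 of the 271. Of its 56 tested genes 50 had a negative difference, 3 were called lower and 1 higher, and the median was -0.54. These windows and the one on chromosome 17 were picked after the values were seen, and no test of position was made.

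Examples of the chromosome 20 block are genes that most cells express. ITPA, which clears inosine triphosphate, was at 20.6, 19.9 and 15.4 TPM in EM1 and 41.9, 40.7 and 47.4 TPM in Parental (log2 difference -1.39 ± 0.18, edgeR, BH-adjusted p = 0.000335). IDH3B, a subunit of the mitochondrial isocitrate dehydrogenase, was at 42.7, 39.5 and 34.6 TPM against 92.8, 71.3 and 90.9 TPM (-1.38 ± 0.19, edgeR, BH-adjusted p = 0.000591). SNRPB, a core protein of spliceosomal snRNPs, was at 88.4, 90.5 and 103 TPM against 181, 146 and 227 TPM (-1.06 ± 0.21, edgeR, BH-adjusted p = 0.0106). The EM1 libraries of these 3 genes all lay below the Parental libraries. ITPA was called in all 17 alternative settings, while SNRPB was lost without EM1 replicate 1 (0.0616) or 2 (0.0557). The difference was smaller on either side. Of 26 tested genes before 2 Mb the median difference was 0.14, of 95 between 4 and 26 Mb it was -0.23 with 7 called lower, and of 318 beyond 26 Mb it was -0.04.

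The chromosome 20 block was low in EM3 too and in no other line. Set against the Parental mean, the median log2 level of its 29 genes was -1.18, -1.01 and -0.85 in the EM1 libraries and -0.96, -1.01 and -0.88 in the EM3 libraries. It was 0.05 to 0.07 in E, -0.06 to 0.21 in EM2, 0.03 to 0.15 in M1 and 0.21 to 0.60 in M2. Between EM1 and EM3, 0 of the 29 genes were called in edgeR, DESeq2 or limma-voom and 0 had an unadjusted p under 0.05 in edgeR. Over all genes edgeR called 0.37% between these clones, with 723 of 18632 at such a p, so 0 calls in 29 genes say little. Against E, 19 of the 29 were called lower in EM1, beside 1507 of 18632 over all genes, and against EM2 20, beside 653. The count of 16 against Parental fell to 10 without EM1 replicate 1 and to 9 without EM1 replicate 2, and was 2 with the 6 libraries fitted alone.

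Chromosome 17 showed a longer and shallower stretch. Of 203 tested genes in its first 10 Mb, 183 had a negative difference, 30 were called lower and 0 higher, beside the 1.07% called lower over all genes, and the median log2 difference was -0.65, or 1.57-fold lower. In 79 of them all EM1 libraries were below all Parental libraries, beside 4.36% over all genes. DESeq2 called 62 lower, and edgeR with mean effective length as a covariate called 68. Over the other 898 tested genes of the chromosome the median was -0.05, with 3 called lower and 7 higher. C1QBP, a mitochondrial matrix protein, was at 370, 356 and 281 TPM in EM1 and 1017, 592 and 669 TPM in Parental (log2 difference -1.04 ± 0.19, edgeR, BH-adjusted p = 0.00524). The nucleoporin NUP88 was at 143, 108 and 83.3 TPM against 193, 165 and 160 TPM (-0.77 ± 0.17, edgeR, BH-adjusted p = 0.0201), a call lost without EM1 replicate 2 (0.0541), EM1 replicate 3 (0.0676) or Parental replicate 1 (0.088).

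Among the other lines, the chromosome 17 stretch was low in EM3 and lower still in M2. The median log2 level against the Parental mean was -0.67, -0.60 and -0.40 in the EM1 libraries, -0.54, -0.55 and -0.38 in EM3, and -1.18, -1.27 and -0.91 in M2. In M1 it was -0.17 to 0.16. Between EM1 and EM3, 0 of the 203 genes were called in edgeR, DESeq2 or limma-voom, with 5 at an unadjusted p under 0.05 in edgeR. Over all genes edgeR called 0.37% between these clones, with 723 of 18632 at such a p, so 0 calls in 203 genes say little. M2 was called lower than EM1 in 99 of the 203 and higher in 14, beside 4685 and 3843 of 18632 over all genes. The count of 30 against Parental fell to 11 without EM1 replicate 1, 14 without EM1 replicate 2, 19 without Parental replicate 1 and 18 without Parental replicate 2, and was 14 at a log2 change of at least 1, 5 with EM1 replicate 3 alone and 0 with the 6 libraries fitted by themselves.

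**Figure D4:**
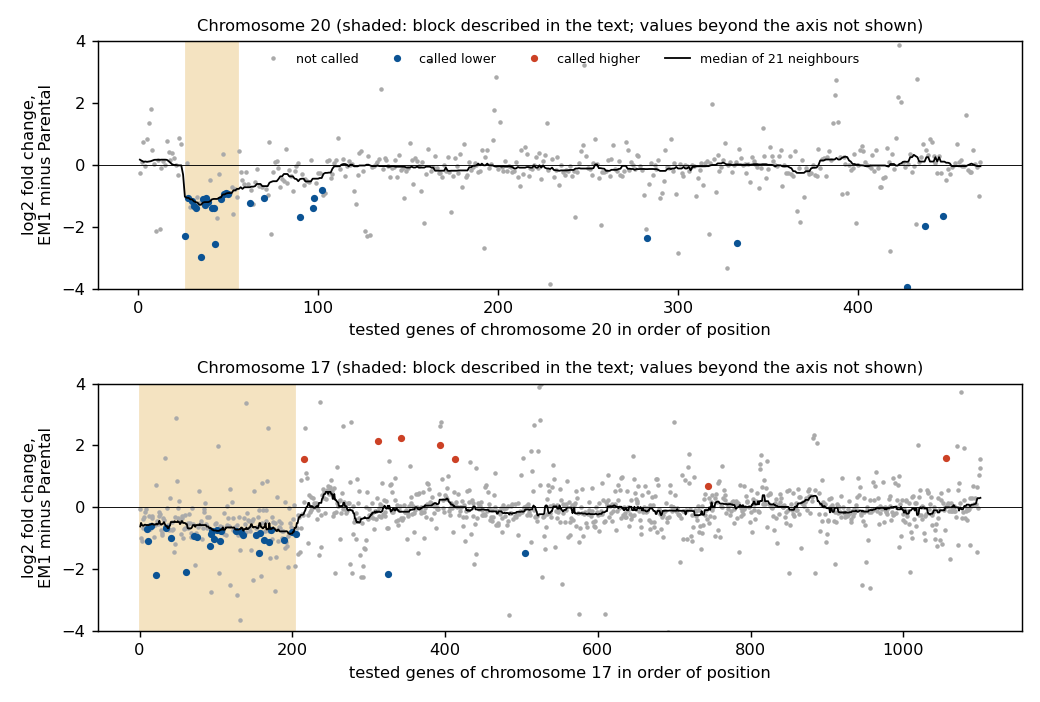
The edgeR log2 difference, EM1 minus Parental, of each tested gene of chromosomes 20 (top) and 17 (bottom), in order of position on the x axis, with called genes coloured and a line giving the running median of 21 genes. The line drops to about the block median of -1.10 in the shaded part of chromosome 20 and -0.65 in that of chromosome 17.

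Shorter runs of neighbours held 3 to 8 called genes. On the X chromosome BEX1, BEX4, TCEAL8, BEX2 and TCEAL9, all 5 tested genes of the span (chrX:103062651-103358462), were called higher. BEX1, a small brain-expressed adaptor protein, was at 38.2, 44.6 and 28.7 TPM in EM1 and 4.26, 2.13 and 2.71 TPM in Parental (log2 difference 3.43 ± 0.43, edgeR, BH-adjusted p = 0.000335), a call kept in all 17 alternative settings. TCEAL8 was at 73.1, 57.7 and 58.4 TPM against 15.6, 18.1 and 22.0 TPM, again without overlap. Its call was lost without EM1 replicate 1 (0.0634), Parental replicate 1 (0.0575) or Parental replicate 2 (0.0516). BEX2 lost its call without any one of 4 libraries (EM1 replicates 2 and 3, Parental replicates 2 and 3, 0.0556 to 0.118), BEX4 without any one of the 6 (0.065 to 0.153), and TCEAL9 kept it in each case. On chromosome 12 the leucine-rich proteoglycan genes EPYC, LUM and DCN, all 3 tested genes of their span, were lower. Decorin (DCN) was at 7.33, 17.8 and 8.19 TPM in EM1 and 44.0, 58.5 and 35.3 TPM in Parental (-2.00 ± 0.39, edgeR, BH-adjusted p = 0.00975). The DCN difference was -2.71 without EM1 replicate 2. The DCN call was lost without EM1 replicate 3 (0.0524), that of LUM without any one EM1 library (0.0607 to 0.0751), and that of EPYC without EM1 replicate 1 (0.13), EM1 replicate 3 (0.145), Parental replicate 1 (0.0674) or Parental replicate 2 (0.144). DCN was also one of the genes that set EM1 apart from EM3, where it was at 129 TPM (edgeR, BH-adjusted p = 0.000172).

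Of 32 interferon response genes 1 was called higher and 2 lower, beside the 2.01% called over all genes, with a median log2 difference of -0.10. DESeq2 called 1 higher and 5 lower. The edgeR calls were CMPK2, a mitochondrial nucleotide kinase (0.65, 0.82 and 0.43 TPM against 0.10, 0.15 and 0.25 TPM), the antiviral enzyme OAS1 and XAF1, an antagonist of XIAP. OAS1 and XAF1 rested on 3 and 2 counts in EM1 and 23 and 38 in Parental, and their TPM ranges overlapped. Each of the 3 calls was lost when single libraries were left out, for example without Parental replicate 2 (edgeR, BH-adjusted p = 0.153, 0.0705 and 0.121). Of 18 antigen presentation genes 0 were called in edgeR and 2 had an unadjusted p under 0.05. Over all genes these were 2.01% and 2314 of 18632. DESeq2 called 2 of the 18 lower, and limma-voom and limma-trend called 0.

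Among 27 tested chemokine and inflammation genes, IL33 was called higher and CXCL5 lower, beside the 2.01% called over all genes. The alarmin IL33 was at 79.6, 40.8 and 44.2 TPM in EM1 and 12.3, 5.76 and 24.9 TPM in Parental (log2 difference 1.95 ± 0.44, edgeR, BH-adjusted p = 0.0233), and CXCL5 at 0.04 to 0.06 TPM against 0.26 to 0.92 TPM (-3.64 ± 0.80, edgeR, BH-adjusted p = 0.0232). The IL33 call was lost without EM1 replicate 1 (0.0951), EM1 replicate 3 (0.0524), Parental replicate 1 (0.0763) or Parental replicate 2 (0.132), and that of CXCL5 without any one EM1 library (0.0736 to 0.0928) or Parental replicate 1 (0.0979, log2 difference -2.81). Of 26 hypoxia and glycolysis genes, 2 were called higher and 1 lower, beside 0.939% and 1.07% over all genes, and the median was 0.16. The glucose transporter SLC2A3 (2.2 ± 0.83 TPM against 0.357 ± 0.18 TPM) and the aldolase ALDOC rose and TPI1 fell. The edgeR BH-adjusted p of SLC2A3 was 0.0642 without Parental replicate 2 and 0.0502 without EM1 replicate 3. That of ALDOC was 0.297 without EM1 replicate 3 and 0.0764 to 0.15 without single Parental libraries, and that of TPI1 was 0.0664 without EM1 replicate 1 and 0.0758 without Parental replicate 1.

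Of 29 proliferation genes 0 were called in edgeR, beside 2.01% of all genes tested. At that share, 0 calls in a list of this size say little about its members. At an unadjusted p under 0.05 there were 3, beside 2314 of the 18632 genes tested. DESeq2 called 2 lower and limma-voom and limma-trend 0. The median log2 difference was -0.27 with 24 negative. MKI67, a marker of cycling cells, was at 68.2, 54.3 and 34.1 TPM in EM1 and 48.4, 59.1 and 49.8 TPM in Parental. The immediate-early and AP-1 genes had a median of 1.08, but 0 of 18 were called, 4 had an unadjusted p under 0.05, DESeq2 called 1, and limma-voom and limma-trend called 0. FOS illustrates their spread, at 19.9, 3.33 and 203 TPM in EM1 and 9.82, 2.79 and 6.73 TPM in Parental.

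The lists for WNT (25 genes), Hippo (20), ERBB receptors (13), amino acid and protein stress (20), matrix proteases (20) and core-binding factor (5) had 0 calls in edgeR. Over all genes 2.01% were called, so 0 calls in lists this short say little about their members. In the order named, the lists had 6, 7, 0, 0, 6 and 1 genes at an unadjusted p under 0.05, beside 2314 of 18632 over all genes. DESeq2 called 2, 2, 0, 0, 1 and 1, limma-voom called 0, 1, 0, 0, 1 and 1, and limma-trend called 0 in each. Of 6 tested cancer-testis genes, 0 were called by any of these tools and 0 had an unadjusted p under 0.05. Of 18 breast stem and lineage genes, TBX3, a T-box repressor, was the one called, with 0 counts in EM1 and 44 in Parental (at least 17.5-fold lower), and it was lost without any one EM1 library (0.0535 to 0.0805) or Parental replicate 2 (0.0705). Of the 10 tested blood, immune, endothelial and muscle markers, ITGAM was called lower, on 2 counts against 46, and was lost without any one library other than Parental replicate 3 (0.0638 to 0.158). Of 31 TGF-beta and BMP genes, LTBP1, which anchors latent TGF-beta, rose (3.22 ± 0.42 TPM against 1.40 ± 0.13 TPM) and INHBB fell. The LTBP1 call was lost without any single library of the 6 (edgeR, BH-adjusted p = 0.0763 to 0.183). AKR1C3, an aldo-keto reductase of the oxidative stress list, was the one gene called there, at 2.13 ± 1.01 TPM against 8.89 ± 3.28 TPM, and its call was lost without any one library other than Parental replicate 1 (0.0598 to 0.136).

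**Figure D5:**
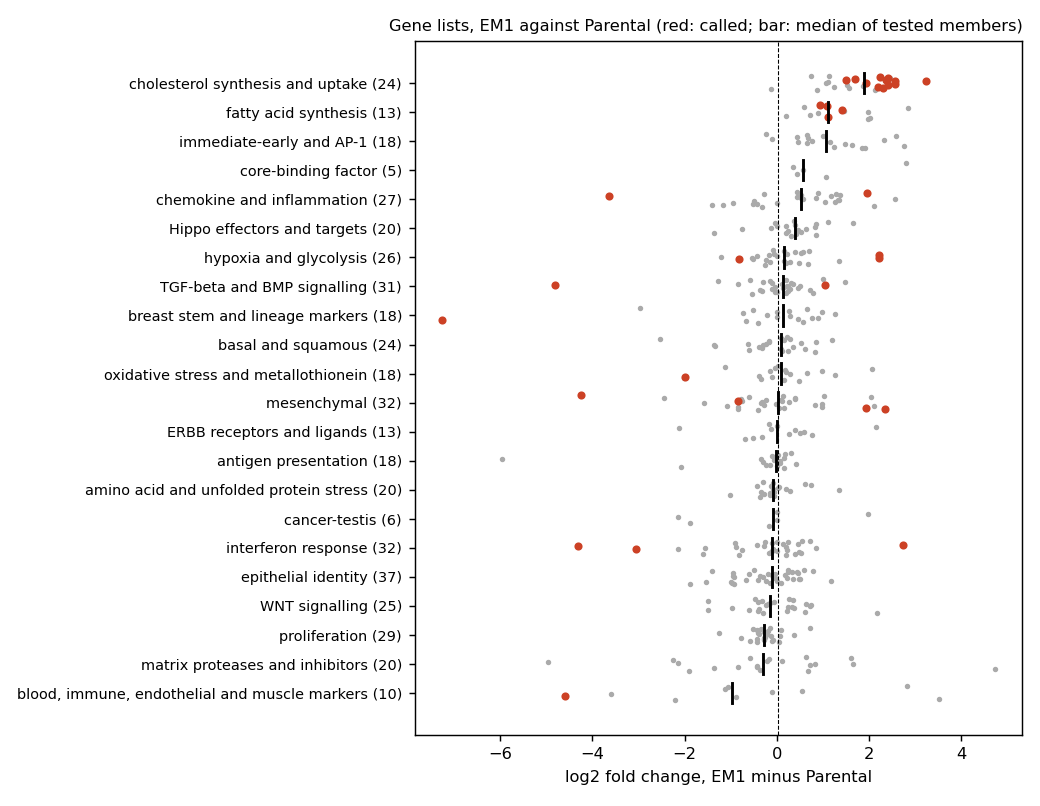
The edgeR log2 difference, EM1 minus Parental, of every tested member of 22 gene lists (number tested in brackets), with called genes red and a bar at each list's median. The cholesterol list has the highest median, 1.90, and 12 called genes, and the dashed line marks the median of all tested genes, 0.02.

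Few genes set EM1 apart from every other line. Those called with one sign against Parental and all 5 other clones were 4 of 18632 (0.0215%), all lower in EM1. They were COL5A1, the matrix protease ADAMTS7, the insulin receptor INSR and SIRPA, the receptor for CD47. ADAMTS7 was at 0.06, 0.10 and 0.06 TPM in EM1 and 0.31, 0.70 and 0.78 TPM in Parental (log2 difference -2.96 ± 0.35, edgeR, BH-adjusted p = 0.000193), and from 0.267 TPM in EM3 to 4.90 TPM in M1. SIRPA, the first gene of the chromosome 20 run, was at 0.19, 0.13 and 0.30 TPM against 1.10, 1.01 and 0.79 TPM in Parental, and 1.06 TPM in EM3 (EM1 against EM3, edgeR, BH-adjusted p = 0.0194). INSR rested on 6 counts in EM1 and 38 in Parental, at 0.01, 0 and 0.11 TPM against 0.10, 0.47 and 0.13 TPM, and these ranges overlapped. Without EM1 replicate 1 the number was 1.

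Parental in turn was apart from all 6 clones in 7 genes (0.0376%), of which 6 have names. Higher in Parental than in every clone were BCL11A, a zinc finger repressor, NDUFA9, a subunit of respiratory complex I, and SDR42E1. NDUFA9 was at 178, 164 and 182 TPM in EM1 and 300.1, 322 and 284 TPM in Parental (log2 difference -0.86 ± 0.19, edgeR, BH-adjusted p = 0.0208), and the means of the other clones were 130.4 to 187 TPM. Its call was lost without EM1 replicate 1 (0.079), EM1 replicate 2 (0.0875), Parental replicate 1 (0.0789) or Parental replicate 2 (0.0866). That of SDR42E1 was lost without any one library (0.061 to 0.154). BCL11A had 2 counts in EM1 against 189 in Parental, 113-fold fewer for the depth (95% exact interval 30.8 to 937). Lower in Parental were the adhesion receptor ICAM1, SRPX and RAB3IL1. SRPX was at 17.2, 14.5 and 17.6 TPM in EM1 and 6.15, 6.74 and 4.73 TPM in Parental (1.40 ± 0.22, edgeR, BH-adjusted p = 0.00161). ICAM1 rose to 8.91 ± 5.14 TPM from 2.14 ± 0.93 TPM, a call lost without EM1 replicate 3 (0.228), EM1 replicate 2 (0.0714), Parental replicate 2 (0.211) or Parental replicate 3 (0.161). RAB3IL1 was lost without EM1 replicate 2 (0.0507), Parental replicate 2 (0.0792) or Parental replicate 3 (0.0626). Without EM1 replicate 2 the number of genes was 2, without EM1 replicate 3 it was 4, and without Parental replicates 1, 2 and 3 it was 11, 3 and 11.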

How the data were processed

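RNA-seq tables of 21 libraries were used. Per the submitters' processing notes, the authors used bcl2fastq 2.20.0.422, cutadapt 2.4, STAR 2.7.2b and RSEM 1.3.2 with hg38, and the annotation release and strand setting are not given in the sources used here. Without a stated strand, overlapping and antisense genes cannot be told apart. Per the file headers, the authors deposited expected counts, TPM and effective lengths per gene for 60617 genes. GENCODE 29 gave positions for 58542 of them.

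The rounded expected counts of all 21 libraries entered a single edgeR 4.0.16 model (R 4.3.3) with a mean for each line, robust quasi-likelihood dispersion, TMM scaling and removal of low-count genes, which left 14 residual degrees of freedom. Genes with a BH-adjusted p under 0.05 are those called. Tests use counts while levels are TPM, and the 2 can give different folds. Intervals cover counting error only. Scripts were tested on simulated data.

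Members, the 22 gene lists (507 genes) and tests were chosen with earlier results of these data known. Genes were named by rule: the 20 largest changes in each direction among called protein-coding genes with a mean CPM of at least 1 and no overlap of libraries (139 higher and 110 lower allowed), members of lists, the genes that set EM1 or Parental apart, and runs of at least 3 called neighbours with at most 2 genes between them. From the genes the rule allowed, those shown were picked after their values were seen. Alternatives were no filter, a filter on a mean CPM of 1, size factors and the Wald test of DESeq2 1.42.0, limma 3.58.1 (voom, and trend on log2(TPM + 1)), a log2 fold of at least 1, EM1 and Parental libraries only, a replicate block, mean effective length as a covariate, and libraries left out. A few genes of the lists are left out of the text.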

Additional observations from a re-analysis of the deposited data

How the results depend on the processing

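The number of genes called between EM1 and Parental, 374, was 1091 with no low-count filter, 841 with DESeq2, 1120 with mean effective length as a covariate, 59 with the 6 libraries only, 185 with EM1 replicate 3 alone, and 197 to 335 with each library left out. The cholesterol count of 12 was 22, 16, 20, 4 and 11 in the same order, and 4 to 14 with each library left out. The genes apart in EM1 were 4, and 16, 12 and 8 under the first 3 of these settings, 0 with EM1 replicate 3 alone, 2 with limma-voom, 1 with limma-trend on TPM and 1 to 4 with a library left out. Those apart in Parental were 7, and 84, 24 and 61, 4 with a mean CPM of at least 1, and 2 to 11 with a library left out. The replicate numbers did not pair EM1 with Parental (r of -0.25, -0.10 and -0.10 between same-numbered deviations, with no EM1 library closest to its own number). The replicate block gave 554 calls, 16 in the cholesterol list, 49 lower in the chromosome 17 stretch, and 6 and 14 genes apart. Limma-trend on TPM made 66.9% of its 287 calls higher in EM1 against 46.8% of the 374. Of the 374 genes, 1 had the opposite sign under limma-trend on TPM. No called gene named here reversed direction in the alternatives run. Named genes that were not called, such as CDH1 and MKI67, were not followed through the alternatives. Where a count moved, the cause was not tested. Genes under about 1 TPM rest on few counts, which limits their levels.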
